A study of Ovis aries with 36 samples.

Results

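The genes described here are 10 markers of muscle fibre type: the myosin heavy chain genes MYH1, MYH2, MYH3, MYH7, MYH8 and MYH13, the troponin genes TNNI1, TNNI2 and TNNT1, and the transcription factor gene SOX6. They were found by name among 22851 gene names in the count files, and 8 of the 10 symbols had a locus. No locus was named MYH2 or MYH7. The study measured the mRNA of sheep fetuses (Ovis aries) from ewes fed corn (CN), dried corn distillers grains (DG) or alfalfa haylage (HY, labelled Hay) until late gestation. Longissimus dorsi muscle, subcutaneous fat from near the shoulder blade and perirenal fat were each sequenced as 12 RNA pools, with 2 pools of female fetuses (F1, F2) and 2 of male fetuses (M1, M2) per diet. The pools came from 26 fetuses of 15 dams, and most combined several fetuses, while the study lists the second female pool of CN (F2) as a single fetus. Some pools of one diet share dams, and p-values measure only the spread between pools. All groups were otherwise untreated, and no diet served as an unfed or standard control.

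Myosin heavy chains are the motor proteins of the sarcomere, and each fibre type uses its own gene. MYH7 and the troponins TNNI1 (inhibitory subunit) and TNNT1 (tropomyosin-binding subunit) mark slow oxidative fibres, MYH1, MYH2 and TNNI2 mark fast fibres, MYH13 is the superfast form best known from eye and laryngeal muscles, and MYH3 and MYH8 are the embryonic and perinatal forms that adult fast myosins replace around birth. SOX6 represses slow genes in fast fibres.

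In muscle, 7 loci of the Oar_v3.1 genome build held a member. MYH13 (chr11:28880148-28928678) and MYH8 (chr11:28953832-28981119) had their own loci beside 1 merged locus (chr11:29001583-29170600) that carried the names MYH1, MYH3, OMYHC2A and OMYHC2X. The fast form MYH1 and the embryonic form MYH3 therefore cannot be told apart in these counts, and MYH2, which lies next to MYH1 in the RefSeq table of assembly ARS-UI_Ramb_v3.0, may be counted there too. In the subcutaneous files the merged locus also took in MYH8 (chr11:28953831-29170601), which left 6 loci. TNNI1 lay at chr12:78591680-78596882, TNNT1 at chr14:59547348-59556887, SOX6 at chr15:35389123-36106729 and TNNI2 at chr21:48802812-48805457, each as the only name of its locus in muscle. Each position is that of the whole gene locus, exons and introns included.

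The slow myosin was followed through a locus named OMYHCS (chr7:21104075-21157369), the sheep slow myosin heavy chain name, which was chosen after the names in the files were seen. It lies between NGDN and CMTM5, and the RefSeq table places 2 genes without a symbol between them, so its counts may come from more than 1 myosin gene. Myosin genes are near-identical over long stretches and the authors kept reads that mapped equally well to several places, up to a limit. How such reads were then counted is not given in the sources used here, so the split of counts between myosin loci is uncertain.

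Library totals ran from 13749762 to 29625146 counts in muscle, from 6705766 to 20272024 in subcutaneous fat and from 7802700 to 15913813 in perirenal fat. The generic muscle markers were present in all muscle pools (ACTA1 13980 to 25490 CPM, the counts of a locus scaled to a common library total), while the adipocyte marker ADIPOQ reached 651.8 to 5834 CPM in subcutaneous and 2878 to 10640 CPM in perirenal fat. Summed over 11 generic skeletal muscle genes such as ACTA1 and CKM, the muscle level was 39880 to 45420 CPM in the 4 CN pools, 51590 to 61310 CPM in DG and 54000 to 60610 CPM in HY. All CN pools were thus below all other muscle pools in this sum, and its part in the diet differences given next was not tested. A lower level in tissue RNA cannot tell fewer cells of a type from less RNA per cell.

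Of the 7 member loci in muscle, 1 passed the test of a diet difference. MYH13 was higher in HY than in CN, and TNNI1 was the member with the smallest unadjusted p between DG and CN without passing the FDR. The slow myosin locus OMYHCS, which is not a member, was about 2.1 times as high in HY as in CN by the ratio of group means. Differences were tested with edgeR's quasi-likelihood test over all 18573 loci that passed the count filter, with a false discovery rate (FDR) of at most 0.05 by the Benjamini-Hochberg method. Values are CPM of a pool, given in the order F1, F2, M1 and M2.

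Among the fast forms, MYH13 had 4.10, 16.6, 4.22 and 11.7 CPM in CN pools. It had 30, 14.6, 14.2 and 19.6 CPM in DG and 48.5, 26.1, 53.9 and 14.2 CPM in HY. HY F1 and M1 were the highest of all pools, and the HY and CN ranges overlapped because HY M2 lay below CN F2. The edgeR log2 fold change was 1.97 (SE 0.485, FDR = 0.0493) for HY against CN. For DG against CN it was 1.04 (SE 0.479, FDR = 0.304), and for HY against DG 0.93 (SE 0.464, FDR = 0.9997). The counts behind these values were low for a sarcomere gene, from 58 to 1074 reads in a pool. The HY-CN call did not hold in 3 of the other processing settings or in 10 of the 12 fits that left out 1 pool, where the log2 fold change ran from 1.69 to 2.42. It held only without CN F2 or without HY M2.

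TNNI2, the fast troponin I, had 5433, 1098, 1760 and 3413 CPM in CN, 4014, 4607, 3240 and 3801 CPM in DG and 3254, 2384, 3849 and 4241 CPM in HY. The CN pools held both the highest and the lowest value of all 12, a range of 4.95 times, and the other diets lay within it. The log2 fold changes were 0.38 (SE 0.384) for DG and 0.22 (SE 0.384) for HY against CN, with edgeR FDR = 0.660 and 0.790. Without CN F2, the pool of a single fetus, the HY-CN estimate was -0.06.

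The merged MYH1-MYH3 locus held the most counts of all members and passed no test of a diet difference. It ran from 29310 to 43260 CPM in CN, from 31340 to 41250 CPM in DG and from 36110 to 46790 CPM in HY. Its log2 fold change was 0.24 (SE 0.187, edgeR FDR = 0.5) for HY and 0.05 (SE 0.187, edgeR FDR = 0.914) for DG against CN. The ranges of all 3 diets overlapped.

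The perinatal form MYH8 had 4823, 6583, 7407 and 6657 CPM in CN, 6730, 6521, 10700 and 7711 CPM in DG and 6797, 5426, 5881 and 8378 CPM in HY. The male pool DG M1 was the highest and CN F1 the lowest. The log2 fold changes were 0.29 (SE 0.204, edgeR FDR = 0.513) for DG and 0.06 (SE 0.204, edgeR FDR = 0.900) for HY against CN. As a share of the counts of MYH8 and the MYH1-MYH3 locus together, MYH8 made up 15.7% ± 3.18 (SD, n = 12) in muscle, from 11.8 to 20.8%.

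**Figure D1:**
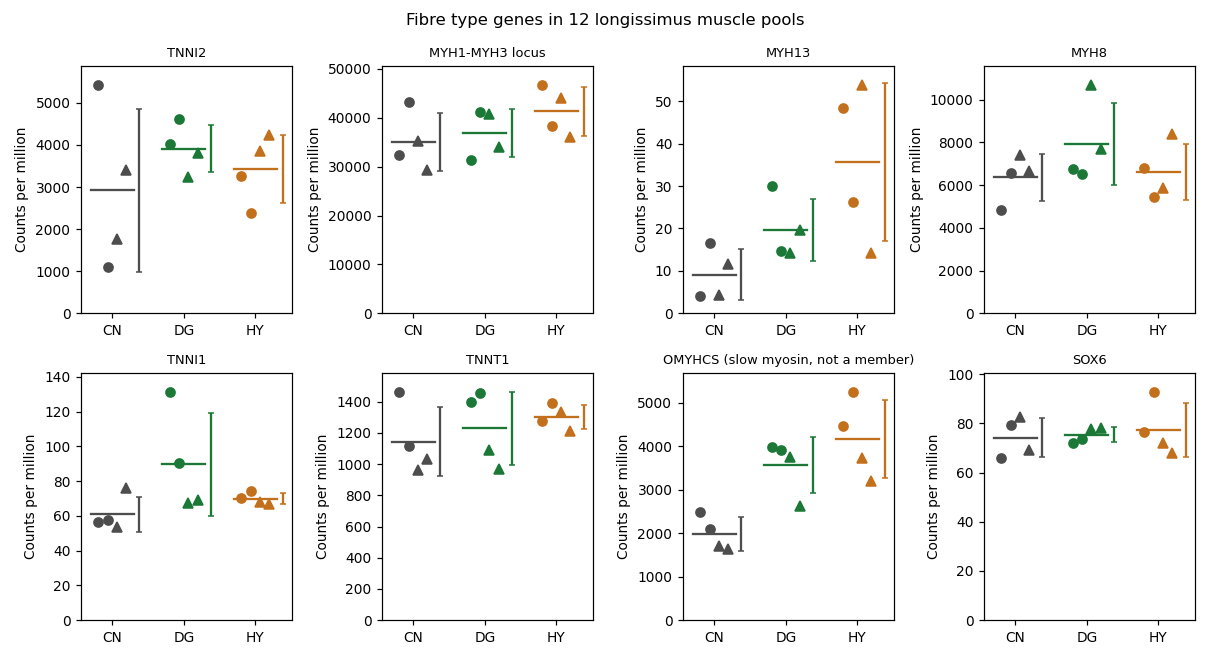
CPM (vertical axes, from 0) of 7 member loci and OMYHCS in the 12 longissimus muscle pools by maternal diet; circles are female pools, triangles male pools, horizontal lines group means and vertical bars ± 1 SD (n = 4). All CN pools lie below all DG and HY pools for OMYHCS, and the diets overlap in every member.

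Of the slow troponins, TNNI1 had 56.3, 57.7, 53.4 and 76.0 CPM in CN, 131.5, 90.4, 67.5 and 69.4 CPM in DG and 70.3, 74.1, 68.0 and 67.1 CPM in HY. Both female DG pools lay above every other pool, and the male DG pools lay within the HY and CN ranges. The log2 fold change for DG against CN was 0.51 (SE 0.174), with an unadjusted p of 0.0108 and an edgeR FDR of 0.184. For HY against CN it was 0.19 (SE 0.174, edgeR FDR = 0.577).

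TNNT1 ran from 960.4 to 1465 CPM in CN, from 971.7 to 1455 CPM in DG and from 1214 to 1390 CPM in HY. The log2 fold changes against CN were 0.07 (SE 0.168) for DG and 0.18 (SE 0.168) for HY, with edgeR FDR = 0.869 and 0.589. The HY pools were the closest together and lay inside the range of the CN pools.

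SOX6 was the steadiest member, with 65.99 to 92.9 CPM over all 12 muscle pools, a range of 1.41 times. The mean CPM was 74.2 ± 7.93 (SD, n = 4) for CN, 75.3 ± 3.1 for DG and 77.3 ± 11 for HY. No log2 fold change of SOX6 between diets was larger than 0.06 in size, with SE 0.109 in each comparison.

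The slow myosin locus OMYHCS had 2491, 2090, 1704 and 1645 CPM in CN, 3991, 3911, 3754 and 2629 CPM in DG and 4455, 5258, 3730 and 3193 CPM in HY. Every CN pool was below every DG and HY pool, while DG and HY overlapped. The log2 fold change was 1.06 (SE 0.194, edgeR FDR = 0.0171) for HY and 0.82 (SE 0.194, edgeR FDR = 0.0638) for DG against CN. For HY against DG it was 0.24 (SE 0.192, edgeR FDR = 0.9997). DESeq2 called the DG-CN difference too (adjusted p = 0.00219), where it called 3.81% of all loci and edgeR 1.01%. The HY-CN call was lost without CN M1, CN M2, HY F1 or HY F2, where the log2 fold change was 0.95 or more. The summed generic muscle markers were lower in the same CN pools, as given above.

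Read against all loci, the member counts were as follows. Between HY and CN, edgeR called 1 of 7 member loci and 2.69% of all loci tested. DESeq2 called 1 of 7 as well, and 7.63% of all loci. The median log2 fold change of the 7 loci was 0.19, beside -0.02 over all loci. Between DG and CN, edgeR called 0 of 7 (1.01% of all loci) and DESeq2 called 0 (3.81% of all loci). Of the 7, 2 (MYH13 and TNNI1) had an unadjusted edgeR p of at most 0.05, as did 16.3% of all loci. Between HY and DG, edgeR called 0 of 7 and 0% of all loci, and DESeq2 called 0 (0.0108% of all loci). An unadjusted edgeR p of at most 0.05 was found for 0 of 7, beside 2.14% of all loci. The DG-CN and HY-CN comparisons use the same 4 CN pools.

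**Figure D2:**
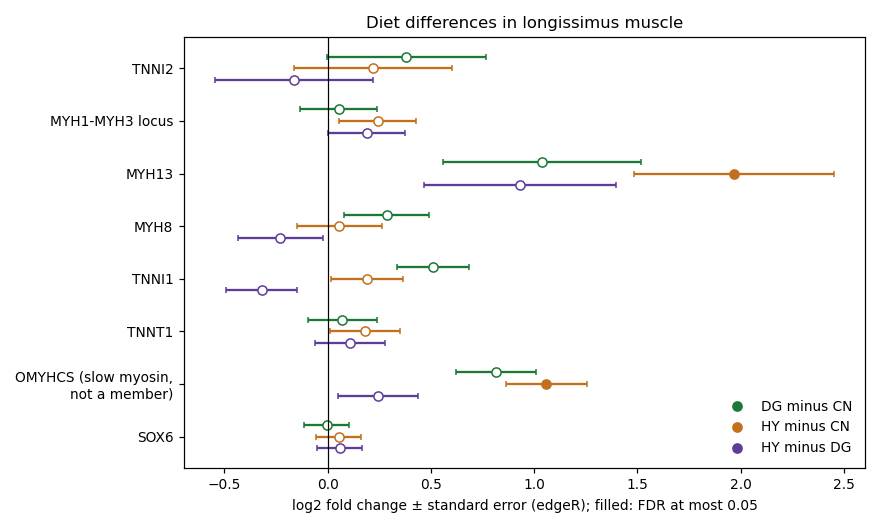
edgeR log2 fold changes (horizontal axis) ± 1 standard error for the 7 member loci and OMYHCS in muscle in the 3 diet comparisons, each from 4 against 4 pools; filled points have FDR of at most 0.05. MYH13 and OMYHCS in HY minus CN are the filled points, at 1.97 and 1.06.

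Between male and female muscle pools, with diet as a covariate, edgeR called 0 of the 7 member loci and 0% of all loci. DESeq2 called 0 of the 7 and 0.0646% of all loci. At an unadjusted p of at most 0.05, MYH8 was one of 2 members of 7, where 3.79% of all loci had such a p, with a log2 difference of 0.35 (male minus female, SE 0.144, edgeR FDR = 0.935). The other was TNNT1, at -0.28 (SE 0.119, edgeR FDR = 0.935). OMYHCS had -0.40 (SE 0.120, edgeR FDR = 0.935).

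Ratios within a library do not depend on library scaling. The planned ratios with MYH7 or MYH2 could not be formed, and OMYHCS against the summed MYH1-MYH3 and MYH8 loci, MYH8 against the MYH1-MYH3 locus, and TNNC1 against TNNC2 were added. As a share of its sum with TNNT3, the fast troponin T, TNNT1 made up 7.88, 7.84, 6.48 and 6.88% in CN, 10.7, 9.17, 8.61 and 7.42% in DG and 10.1, 12.1, 9.28 and 8.33% in HY. All HY pools lay above all CN pools, and DG overlapped with both. In HY-CN the edgeR log2 fold change was 0.18 for TNNT1 and -0.28 (SE 0.172, FDR = 0.375) for TNNT3, and neither was called. The mean log2 ratio differed by 0.49 (SE 0.147) between HY and CN, with an exact two-sided permutation p of 0.0286, the smallest that 4 against 4 pools allow, and 0.214 after adjustment over 15 tests.

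OMYHCS as a share of its sum with the MYH1-MYH3 and MYH8 loci was 6.28, 4.02, 3.85 and 4.37% in CN, 9.49, 7.57, 6.80 and 5.93% in DG and 7.67, 10.7, 6.94 and 6.70% in HY. HY again lay wholly above CN, while CN F1 exceeded DG M2. The log2 ratio differed by 0.85 (SE 0.240) between HY and CN (exact permutation p = 0.0286, adjusted 0.214). For DG against CN the difference was 0.74 (SE 0.230, exact permutation p = 0.0571, adjusted 0.286).

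The troponin I ratio did not follow the same order. TNNI1 made up 1.03, 4.99, 2.94 and 2.18% of TNNI1 and TNNI2 together in CN, 3.17, 1.92, 2.04 and 1.79% in DG and 2.11, 3.01, 1.74 and 1.56% in HY. CN pools held both extremes, and the log2 ratio differed by -0.24 (SE 0.534) between HY and CN (exact permutation p = 0.657). The troponin C ratio, slow TNNC1 against fast TNNC2, differed by -0.04 (SE 0.280) in the same comparison (exact permutation p = 0.857). None of the 15 adjusted p-values was below 0.214.

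The partners of the members were read from lists of genes that act in the same fibres. Of 14 fast-fibre partners with an own locus, edgeR called 0 in either comparison with CN, and 0 and 3 had an unadjusted p of at most 0.05 in DG-CN and HY-CN, as did 16.3 and 20.4% of all loci. Those furthest from 0 in HY-CN were PFKM, the muscle phosphofructokinase (log2 fold change 0.74, SE 0.190, edgeR FDR = 0.0540), and MYBPC2, the fast myosin-binding protein C (0.64, SE 0.163, edgeR FDR = 0.0519). DESeq2 called both. MYLPF, the fast regulatory light chain, was singled out after its values were seen: all 4 CN pools (23600 to 26590 CPM) lay above all DG (15720 to 23170 CPM) and HY pools (15770 to 23440 CPM), and its HY-CN log2 fold change was -0.38 (SE 0.198, edgeR FDR = 0.301).

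Of 12 slow-fibre partners, edgeR called 0, with 2 and 4 at an unadjusted p of at most 0.05 in DG-CN and HY-CN, beside the same 16.3 and 20.4% of all loci. Their median log2 fold change was 0.07 and 0.32, beside 0.00 and -0.02 over all loci. CASQ2, the calsequestrin of slow and cardiac muscle, had 0.90 (SE 0.285, edgeR FDR = 0.102) and MYL2, the slow and cardiac regulatory light chain, 0.67 (SE 0.204, edgeR FDR = 0.0903) in HY-CN. DESeq2 called both of them, where it called 7.63% of all loci.

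Of 7 developmental partners, edgeR called 1, TMEM8C, as higher in both comparisons with CN. Over all loci, 1.01% were called in DG-CN and 2.69% in HY-CN. An unadjusted p of at most 0.05 was found for 2 and 3 of the 7, beside 16.3 and 20.4% of all loci. TMEM8C, the fusion protein myomaker of fusing myoblasts, had 1.48, 1.55, 1.16 and 0.848 CPM in CN, 4.69, 2.92, 4.32 and 2.97 CPM in DG and 4.34, 3.90, 4.67 and 2.83 CPM in HY. No CN pool reached the lowest DG or HY pool. The CN pools held 13 to 30 TMEM8C reads each. The log2 fold change was 1.5 (SE 0.254, edgeR FDR = 0.0149) for DG and 1.63 (SE 0.255, edgeR FDR = 0.00996) for HY. The DG call was lost without CN M1, CN M2 or DG M1, at 1.36 or more. TNNT2, the troponin T of cardiac and embryonic skeletal muscle, had -0.76 (SE 0.244, edgeR FDR = 0.156) and -0.69 (SE 0.244, edgeR FDR = 0.134).

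Of 22 regulators of fibre type, edgeR called 0 lower than in CN. In DG-CN and HY-CN, 1.01 and 2.69% of all loci were called in either direction. Estimates were higher than in CN for 18 and 16 of the 22, beside 49.7 and 47.9% of all loci. NFIX, which drives the switch from embryonic to fetal muscle genes, rose by 1.54 (SE 0.289, edgeR FDR = 0.0190) in HY and HDAC4, a deacetylase that represses MEF2 factors, by 1.48 (SE 0.368, edgeR FDR = 0.0489). The NFIX call was lost without CN F1, CN M1, CN M2, HY F1 or HY F2, at 1.43 or more. The HDAC4 call held only without CN F2, DG F1 or HY M1 among the 12 fits that left out 1 pool. Its log2 fold change ran from 1.19 to 1.65 in these 12 fits. HDAC4 had 0.587 to 3.57 CPM, and the CN pools held 9 to 14 HDAC4 reads each.

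Markers of other cell types were measured in the same muscle pools. The 6 adipocyte markers tested had a median log2 fold change of 1.66 in DG-CN and 0.87 in HY-CN. Of them 0 were called, beside 1.01 and 2.69% of all loci. An unadjusted p of at most 0.05 was found for 5 and 0, beside 16.3 and 20.4% of all loci. ADIPOQ ran from 2.73 to 9.46 CPM in CN, from 6.10 to 38.6 CPM in DG and from 2.67 to 20.7 CPM in HY. LEP was at 0 in all 12 muscle pools. The part of these cells in the member differences was not tested.

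The genes whose pattern was most like a member's were ranked by Pearson's r of log2 CPM over the 12 muscle pools after each diet mean was subtracted, among 10000 named loci (9999 for OMYHCS). For MYH8 they were RABL5 (r = 0.940), SYF2 (0.899) and VOPP1 (0.886). For the MYH1-MYH3 locus they were HOXD8 (r = 0.927), CAP2 (0.915) and ADCY2 (0.899), and for OMYHCS they were AMPD3 (r = 0.862), ZFY (0.847) and XRN1 (0.821). These values describe 12 pools that share library depth and pool make-up, and differences between male and female pools were not subtracted.

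The subcutaneous fat libraries held muscle RNA in amounts that differed by pool. With each gene's CPM set as a percentage of its mean over the 12 muscle pools, the median over 11 generic muscle genes was 28.8, 46.1, 5.36 and 12.1% in CN, 101, 98.8, 1.33 and 89.8% in DG and 1.09, 83.3, 3.14 and 38.3% in HY. Every diet held both rich and poor pools. The poorest, CN M1, CN M2, DG M1, HY F1 and HY M1, were also the libraries with the fewest counts, at 6705766 to 11373497. The part of library depth in these percentages was not tested. Loci were assembled separately in each tissue and their ends differ, so percentages and ratios compared across tissues are approximate.

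The members differed in how closely they followed this amount. The merged MYH1-MYH3-MYH8 locus had 7490, 15130, 1243 and 3735 CPM in CN, 26180, 22580, 312.0 and 26030 CPM in DG and 248.8, 26230, 1048 and 897.0 CPM in HY. TNNT1 had 759.5, 2683, 126.6 and 225.3 CPM in CN, 3850, 1749, 33.8 and 2168 CPM in DG and 27.4, 3190, 95.2 and 3218 CPM in HY. DG M1 and HY F1 were the poorest in both, and HY M2 was rich in TNNT1 and poor in the merged locus. MYH13 was at 5.29% of its muscle mean in DG F1 and at 201% in DG F2, which were alike in the generic markers. TNNI2 was at 0.844% in HY M2 and at 1.03% in HY M1, where the generic median was 38.3 and 3.14%.

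The forms were also set against the generic markers of the same library. TNNT1 was above the generic median in 12 of 12 subcutaneous libraries, at 1.45 to 6.86 times it, and OMYHCS in 10 of 12, at 0.805 to 6.18 times. The merged myosin locus was above it in 0 of 12, at 0.0524 to 0.747 times, and TNNI2 in 0 of 12, at 0.0221 to 0.329 times. TNNI1, a slow form, was above it in 5 of 12, at 0.336 to 2.74 times. MYH13 was above it in 2 of 12 (DG F2 and DG M2), at up to 2.04 times, and the fast partner TNNT3 in 2 of 12, at up to 1.03 times.

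**Figure D3:**
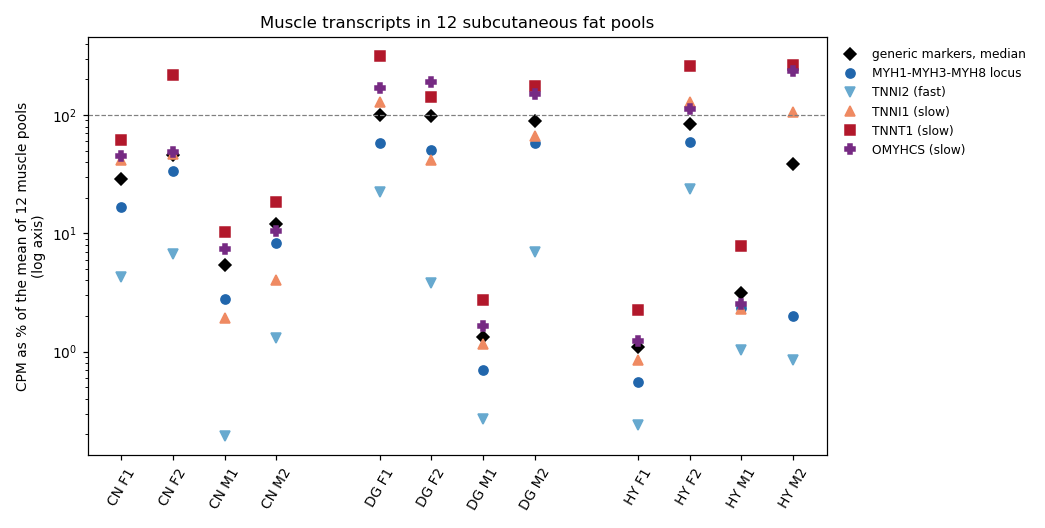
Level of muscle genes in each of the 12 subcutaneous fat pools as a percentage of the gene's mean CPM over 12 muscle pools (log axis; dashed line, 100%); black diamonds are the median of 11 generic muscle genes. TNNT1 lies above and TNNI2 below the diamond in every pool, and in HY M2 the slow genes lie above 100% while the merged myosin locus is near 2.01%.

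Within-library ratios gave the same order for each pair of forms. TNNI1 made up 17.5, 13.1, 17.5 and 6.31% of troponin I counts in the CN subcutaneous pools, 11.1, 19.0, 8.42 and 17.1% in DG and 6.98, 10.5, 4.51 and 72.8% in HY, where muscle had 2.37% ± 1.04 (SD, n = 12). It was higher in subcutaneous fat than in muscle of the same diet and pool number in 12 of 12 pairs, and 11 of 12 subcutaneous values lay above all muscle values. In CN M1, CN M2, DG M1, HY F1 and HY M1 the subcutaneous share rested on 10, 20, 8, 6 and 19 TNNI1 reads and is imprecise. The mean log2 ratio differed by 2.85 (SE 0.494), with p = 0.000488 in a two-sided sign-flip permutation test over all sign patterns of the 12 pairs. That is the smallest p this test can give, and it stayed 0.000488 after adjustment over 4 ratios.

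TNNT1 made up 29.96, 30.5, 30.9 and 21.5% of the counts of TNNT1 and TNNT3 in CN, 28.8, 33.0, 25.3 and 26.2% in DG and 24.5, 24.8, 18.5 and 92.6% in HY. No subcutaneous library was as low as the highest muscle library, at 12.1%. The log2 ratio was higher by 2.36 (SE 0.451) than in muscle, in 12 of 12 pairs (sign-flip permutation p = 0.000488). For TNNC1 against TNNC2 the difference was 3.27 (SE 0.467), also in 12 of 12 pairs (sign-flip permutation p = 0.000488). The TNNC1 locus spanned 2760 bp in muscle and 4231 bp in subcutaneous fat, and the TNNC2 locus 4687 and 2894 bp. The part of the differing locus ends in these ratios was not tested.

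OMYHCS made up 16.4, 9.48, 16.0 and 8.38% of its sum with the merged myosin locus in CN, 17.4, 21.4, 14.7 and 15.9% in DG and 13.7, 12.1, 7.25 and 89.5% in HY. Muscle ranged from 3.85 to 10.7%, so 9 of 12 subcutaneous libraries lay above every muscle library. The log2 ratio was higher by 1.65 (SE 0.508) in 12 of 12 pairs (sign-flip permutation p = 0.000488), with a smallest pair difference of 0.07.

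The HY M2 subcutaneous library stood apart from the other 11 in all 4 ratios. Its slow share was 72.8% for troponin I, 92.6% for troponin T, 98.3% for troponin C and 89.5% for myosin, where the highest of the other 11 libraries were at 19.0, 33.0, 75.7 and 21.4%. The muscle library with the same diet and number was at 1.56, 8.33, 16.5 and 6.70%, each below the highest of the other muscle pools, and its troponin C share was the lowest of the 12 muscle pools. Without this pool the mean log2 differences from muscle were 2.44 for troponin I, 1.93 for troponin T, 2.82 for troponin C and 1.17 for myosin, each higher in 11 of 11 pairs.

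Of 5 cardiac markers, 4 had a locus, and they summed to 48.9 to 92.7 CPM in subcutaneous fat against 2.39 to 7.25 CPM in muscle. Most of this was MYBPC3, the cardiac myosin-binding protein C, at 42.2 to 83.4 CPM, where muscle had at most 0.196 CPM and perirenal fat 69.6 to 98.0 CPM. RYR2, the cardiac ryanodine receptor, had 3.72 to 11.8 CPM (muscle 1.19 to 5.12 CPM). NPPA was at 0 in all 12 subcutaneous libraries and TNNI3, cardiac troponin I, was at most 4 CPM. The part of these genes' source in the ratios was not tested. The adipocyte markers ran from 1647 to 12070 CPM summed over 8 genes and the smooth muscle markers from 194.3 to 1050 CPM over 5.

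**Figure D4:**
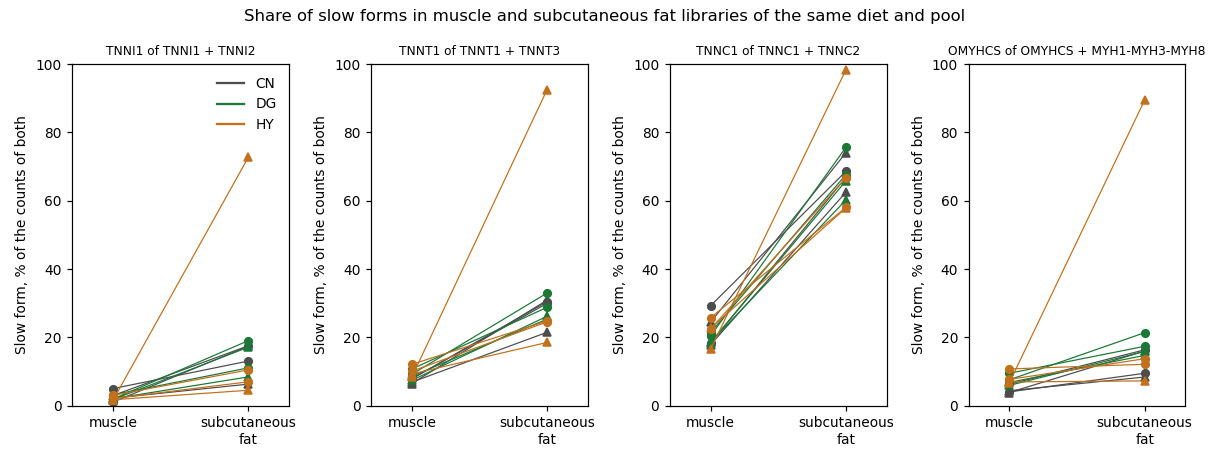
Slow form as a percentage of the counts of both forms (vertical axis) in muscle and subcutaneous fat; each line joins the 2 libraries of 1 diet and pool number (circles, female; triangles, male). Every line rises, and HY M2 reaches 72.8, 92.6, 98.3 and 89.5%.

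Between diets in subcutaneous fat, no member locus passed the test. In DG-CN DESeq2 called 0 of 6 member loci (1.54% of all loci). There edgeR called 0 of 6 (0% of 18008 loci), with 1 at an unadjusted p of at most 0.05 (15.0% of all loci). The one was MYH13, with 0.199, 3.02, 1.13 and 0.298 CPM in CN and 1.13, 43.2, 0.212 and 36.6 CPM in DG (log2 fold change 4.11, SE 1.80, edgeR FDR = 0.326). DG F2 and M2 carried nearly all of its counts, and DG F1, as rich in generic muscle markers, had 1.13 CPM.

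In HY-DG edgeR called 0 of 6 (0% of all loci) and DESeq2 called 0 (4.96% of all loci). Of the 6, 1, SOX6, had an unadjusted edgeR p of at most 0.05 (18.1% of all loci). SOX6 had 39.2, 53.3, 14.1 and 47.8 CPM in DG and 8.18, 32.9, 8 and 13.5 CPM in HY (log2 fold change -1.39, SE 0.615, edgeR FDR = 0.263). The 5 libraries with the most SOX6, at 31.6 CPM or more, were also the 5 richest in the generic markers. In HY-CN edgeR called 0 of 6 (0% of all loci) and DESeq2 called 0 (0% of all loci). An unadjusted edgeR p of at most 0.05 was found for 0 of 6, beside 4.35% of all loci. Standard errors of the 6 loci ran from 0.609 (SOX6 in HY-CN) to 1.80 (MYH13 in DG-CN) on the log2 scale. Differences of a few fold could therefore be missed, most of all at the loci other than SOX6. The median log2 fold change of the 12 generic muscle markers was 1.73 in DG-CN, 0.44 in HY-CN and -1.20 in HY-DG, beside 1.61, 1.03 and -0.93 for the members.

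Perirenal fat held only traces of these genes. The MYH1-MYH3 locus ran from 0.440 to 145 CPM, with CN M2 highest, and the generic marker median was 0.180 to 0.769% of muscle. TNNI1 had 6 reads in all 12 libraries together, MYH13 had 4, and OMYHCS was at most 4.21 CPM. OMYHCS made up 1.19% of its sum with the myosin loci in CN M2, the perirenal library with the most counts at these loci (2075), below the lowest muscle library. SOX6 was 0.703 to 2.31 CPM, where muscle had 65.99 CPM or more.

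MYH13 and TNNI1 were filtered out in perirenal fat for low counts, and 5 of 7 member loci were tested. In DG-CN edgeR called 0 of 5 (0.115% of 18246 loci), in HY-CN 0 of 5 (0% of all loci) and in HY-DG 0 of 5 (0% of all loci). DESeq2 called 0 of 5 in each, beside 1.40, 0.0110 and 0.554% of all loci in DG-CN, HY-CN and HY-DG. An unadjusted edgeR p of at most 0.05 was found for 0 of 5 in each, beside 9.9, 2.31 and 9.87% of all loci.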

How the data were processed

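RNA of 36 pools was sequenced on an Illumina HiSeq. The authors mapped reads to Oar_v3.1 with TopHat2 (2.0.4), assembled transcripts with Cufflinks (2.1.1) separately in each tissue and deposited raw counts per locus made with HTSeq. Strand is not given in the sources used here. Groups came from the sample titles. Members and lists were chosen with earlier results of these data known. All members were named, as were partners and regulators called in a muscle contrast and the 2 of each list furthest from 0 in HY-CN. Some results on the regulators are not reported here.

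Counts were filtered (filterByExpr, minimum count 10, total 15), scaled by TMM and tested with edgeR 4.0.16 (glmQLFit, robust) over the 12 pools of a tissue, with diet as the only term. SE was derived from each test's F value and log2 fold change. DESeq2 1.42.0, RLE factors, no filter, 2 diets only, a replicate block, thinning and leaving out pools were alternatives. The paper's Cuffdiff cannot be run on counts. Ratios used a pseudocount of 0.5 (5 as the alternative) and permutation tests in scipy 1.17.1. No 2 libraries of a tissue agreed within sampling noise (chi-square per degree of freedom at least 11.4 over 66 pairs per tissue). The edgeR fit was tested on simulated muscle counts with a large known change in loci above a count floor. That does not cover smaller changes or the wider spread in subcutaneous fat. Library totals are given in the report, and loci under about 10 counts are imprecise.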

Additional observations from a re-analysis of the deposited data

Results flagged for a closer look

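In each group of 4 pools, a pool was marked where its gap to the nearest of the others exceeded Dixon's critical value for the group's range. Of 90 groups tested, 11 were marked. Chance marks about 1 in 20 where groups are independent and values normally distributed. The groups here share pools, and CPM in subcutaneous fat were widely spread, so these rates cannot be compared. The HY M2 subcutaneous library was marked for 3 ratios: its log2 ratio of TNNT1 to TNNT3 was 3.64 (others -2.14 to -1.60), of TNNC1 to TNNC2 5.87 (others 0.458 to 1) and of OMYHCS to the myosin loci 3.09 (others -3.68 to -2.65). The HY F2 subcutaneous library was high in the merged myosin locus, with 26230 CPM, and in TNNI2, with 804.3 CPM. DG M1 was low in the merged locus among subcutaneous DG pools, with 312.0 CPM, and CN M2 was low in the log2 ratio of TNNT1 to TNNT3, at -1.87. In perirenal fat TNNI2 was high in CN M2 (10.6 CPM) and HY M2 (4.78 CPM), and TNNT1 in HY F2 (4.54 CPM). In muscle, HY M2 had a log2 ratio of MYH8 to the MYH1-MYH3 locus of -2.11, where the other HY pools had -2.91 to -2.78.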

How the results depend on the processing

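The count of 1 member locus called between HY and CN in muscle (MYH13) was 0 with no filter on low counts, 0 with only the 2 diets compared and 0 with the replicate block. Leaving out 1 pool at a time gave 0 to 1, with the call kept only without CN F2 or HY M2. In subcutaneous fat the HY-DG count of 0 was 0 to 1 when 1 pool was left out, with SOX6 called without HY F2. All other counts of member loci called were the same in the alternatives run. With pool numbers as a block, the p of the HY-CN ratio differences in muscle, 0.49 for TNNT1 to TNNT3 and 0.85 for OMYHCS to the myosin loci, was 0.125 in an exact permutation test, the smallest that 4 pairs allow. Pools with the same number share a number and a sex, not dams: the mean correlation of their deviations was -0.0454 in muscle, 0.191 in subcutaneous and 0.0548 in perirenal fat, over 12 pairs each. The block also turned the OMYHCS DG-CN difference (0.82) into a call and lost that of HDAC4 in HY-CN (1.46). No block was possible for sex, because the numbers are nested in it. The causes of lost and gained calls were not tested.

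Leaving out 1 pool turned the sign of small differences in muscle. The DG-CN log2 fold change ran from -0.0563 to 0.167 for the MYH1-MYH3 locus, from -0.0780 to 0.220 for TNNT1 and from -0.0512 to 0.0662 for SOX6. The HY-CN one ran from -0.0733 to 0.155 for MYH8, from -0.0236 to 0.110 for SOX6 and from -0.0575 to 0.710 for TNNI2, and the HY-DG one of SOX6 from -0.0119 to 0.126. The OMYHCS difference in HY-CN ran from 0.95 to 1.20 and lost its call in 4 of 12 such fits (without CN M1, CN M2, HY F1 or HY F2). TMEM8C in DG-CN lost its call without CN M1, CN M2 or DG M1 and with only the 2 diets compared (1.49), and NFIX in HY-CN in 5 of 12 fits. Every subcutaneous-to-muscle ratio difference stayed above 0 and past its threshold in all alternatives, from 1.17 to 3.46 on the log2 scale. For TNNI1 to TNNI2 only 7 pools had 30 or more counts of both genes in both libraries. Perirenal counts of MYH13 and TNNI1 were too few for any comparison.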
